A study of Homo sapiens with 2 samples.

Results

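The genes examined were 8 DNA mismatch repair genes, a set defined by function with no threshold on values: the MutS homologs MSH6, MSH3, MSH4 and MSH5, the MutL homologs PMS2, PMS1 and MLH3, and the exonuclease gene EXO1. Of these, 7 had a probe set in the deposited table, out of 17687 genes named there, and each of the 7 had 1 probe set. MSH5 was not analysed here. The cells were SW48, a line derived from a human colorectal cancer and known to be deficient in mismatch repair. One culture received a small interfering RNA (siRNA) that targets YY1, a zinc finger transcription factor, and is called siYY1. The other received a negative control siRNA and is called siControl. Both were SW48 cells given 5 nmol/L of siRNA and cultured for 3 days, and total RNA of each was put on 1 whole-transcript array, so there were no replicates, no spread and no test. A single siRNA sequence targeted YY1, and the level of YY1 is not reported here, so the size of the knockdown was not checked.

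Mismatch repair removes base mismatches and small unpaired loops left behind by DNA polymerases. MutS complexes recognise the error, MutL complexes cut the new strand near it, EXO1 removes that strand, and the gap is then filled and sealed. In colorectal cancer, loss of the pathway gives microsatellite instability, in which short repeats gain or lose units at many sites. Some MutS and MutL homologs also act, or act mainly, in meiosis, where they promote crossing over between chromosomes.

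In SW48 cells, 6 of the 7 measured genes were well above the dim end of the arrays, and the largest difference between siYY1 and siControl among these 6, that of PMS2, was -0.11 on the log2 scale. MSH6 was higher by 0.07. PMS2, EXO1 and MSH3 were lower, and MLH3 and PMS1 differed by -0.01 and 0.00, with signs that turned with the scaling of the arrays. MSH4, a meiotic gene, lay among the dimmest genes on both arrays. At a threshold of 1.5-fold, 0 of the 7 genes were higher and 0 lower, where 3.98% of all named genes were higher, 3.9% lower and 7.88% past it in either direction.

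The promoters of the members are shown first, because the knockdown targeted a promoter-binding factor and because they differ in a way the choice of genes did not use. All 8 members had at least 1 promoter in the RefSeq promoter table of build GRCh38.p14, 13 in all, each a window of 300 bases from 250 before to 50 after a start site. Motifs were searched on both strands as plain letters, and the members' matches are descriptions of those letters. Windows 3 and 4 of MSH6 nearly coincide, and the PMS2 windows overlap and hold the same CCAAT matches. The 13 windows are therefore not 13 separate promoters. The YY1 core motif AANATGGC was present in 0 of the 13 windows, as was a longer form of the YY1 motif that contains the same core. The core was present in 6.58% and the longer form in 1.44% of the 35116 promoters in the table. For E2F, only the forms TTTGGCGC and TTTCCCGC were searched, and 2 of the 13 windows held 1 of them. Other forms of the E2F motif were not searched. A window without these letters, such as those of EXO1, may therefore still hold an E2F motif. TTTGGCGC stood in the MSH3 promoter (0.652% of all promoters) and TTTCCCGC in the first MSH6 promoter (1.63%). The CCAAT box letters were found in 6 of the 13 windows, those of MSH6 (the first), MSH4, MSH5, PMS2 (both) and PMS1, and in 34.6% of all promoters.

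A selection of stretches is given next. It holds those with a searched E2F form and those with a pair of CCAAT matches in the promoters of PMS2 and PMS1. Each is written 5′ to 3′ on the strand of the gene, with each match inside the stretch in capitals. Other CCAAT matches, in MSH4, MSH5 and elsewhere in PMS2, are not printed. They lie at chr2:47783085-47783164 (MSH6, plus strand, the last 20 bases downstream of the start site), chr5:80654532-80654571 (MSH3, plus strand), chr7:6009167-6009236 (PMS2, minus strand) and chr2:189784380-189784429 (PMS1, plus strand).
MSH6: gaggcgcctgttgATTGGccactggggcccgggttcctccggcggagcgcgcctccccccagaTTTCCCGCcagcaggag
MSH3: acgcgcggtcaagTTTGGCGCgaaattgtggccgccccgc
PMS2: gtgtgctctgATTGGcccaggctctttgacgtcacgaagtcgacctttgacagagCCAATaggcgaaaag
PMS1: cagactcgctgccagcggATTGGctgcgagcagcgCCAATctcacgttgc
PMS2 and PMS1 each carried the CCAAT letters on both strands within the stretch shown, and MSH6 carried them on the minus strand 43 to 47 bases before its start.

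CpG dinucleotides, the sites of DNA methylation, were unevenly spread over these promoters. The PMS1 window held 40 CpGs, the first MSH6 window 39, MSH3 37 and the first EXO1 window 33, against a median of 14 over all promoters in the table. MSH5 had 30, the other MSH6 windows 26, 27 and 27, each of the PMS2 windows 24 and MLH3 22. MSH4 had 12, and the second EXO1 start had the fewest at 11. The contrast is shown by 150 bases of PMS1 (chr2:189784290-189784439, plus strand) and of MSH4 (chr1:75796722-75796871, plus strand), each from 160 to 11 bases before the start site, with CpGs in capitals. PMS1 held 19 in this stretch and MSH4 held 3. No methylation was measured in this study.
PMS1: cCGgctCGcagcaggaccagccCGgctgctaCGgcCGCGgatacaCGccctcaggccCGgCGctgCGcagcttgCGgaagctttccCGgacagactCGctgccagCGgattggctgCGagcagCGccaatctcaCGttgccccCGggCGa
MSH4: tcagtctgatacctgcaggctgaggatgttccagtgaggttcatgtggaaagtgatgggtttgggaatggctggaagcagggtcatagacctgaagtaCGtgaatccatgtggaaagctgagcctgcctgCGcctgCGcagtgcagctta

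Levels below are the deposited values taken as log2, and every difference is siYY1 minus siControl on that scale. Probe sets differ in how well they bind, so the level of one gene was not ranked against another. As a guide to dimness only, the median level of all named genes over both arrays was 7.54, used as a filter value. The 349 olfactory receptor genes, which are mostly silent outside the nose, had 95% of their values below 5.61 in siControl and 5.56 in siYY1. No detection call was used here, so no value is called above background.

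Among the mismatch recognition genes, MSH6 encodes the subunit that sets MutS alpha apart, the complex that binds base mismatches and the smallest loops. Its level was 11.10 in siControl against 11.17 in siYY1, which is 0.07 or 1.05-fold higher. MSH3 encodes the corresponding subunit of MutS beta, which binds larger loops. It was at 10.12 in siControl against 10.08 in siYY1, which gives -0.04 or 1.03-fold lower. The arrays were thus nearly level for both subunits, with the small differences in opposite directions. Both genes contain coding mononucleotide runs that are known frameshift targets in mismatch repair deficient tumours. A level on an array does not show whether the transcript carries such a frameshift.

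Of the MutL homologs, PMS2 encodes the subunit of MutL alpha that holds the nicking activity. Its level was 12.64 for siControl and 12.52 for siYY1, and this difference of -0.11 was the largest among the 6 brighter members. PMS2 has many near-identical copies, with 15 pseudogene symbols of its family in the RefSeq gene table, and its probe set may not separate it from them. The level of PMS2 is therefore uncertain. One of these copies, PMS2P3, named after its values were seen, had a probe set of its own, at 13.56 in siControl and 13.80 in siYY1. It differed by 0.24, in the other direction from PMS2.

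PMS1, a MutL homolog whose part in repair is not well settled, was at 9.21 on both arrays, with a difference of 0.00. MLH3, which serves as a nicking subunit in meiotic crossing over and has a lesser part in mismatch repair, was at 9.19 in siControl against 9.18 in siYY1, which gives -0.01. These were the smallest differences among the members. Neither has a direction, for the reason given above.

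EXO1 encodes the exonuclease that removes the nicked strand, and it is transcribed mainly in S phase. It stood at 12.36 in siControl against 12.27 in siYY1, which gives -0.09 or 1.07-fold lower. The probe set of EXO1 was annotated with 3 RefSeq transcripts, that of PMS1 with 6, MSH6 with 4, and PMS2 and MLH3 with 2 each. One value per probe set cannot show a change between such transcripts.

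MSH4, which works with MSH5 to stabilise crossover intermediates in meiosis, was at 3.86 in siControl and 3.71 in siYY1. Of the olfactory receptor genes, 53.3% were at or above the MSH4 level in siControl and 61.6% in siYY1, so MSH4 sat near the middle of that dim group. Its difference of -0.15, the largest in size of the 7 members, was smaller than the scatter of those genes, for which the 5th and 95th percentiles of the difference were -0.58 and 0.62.

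**Figure D1:**
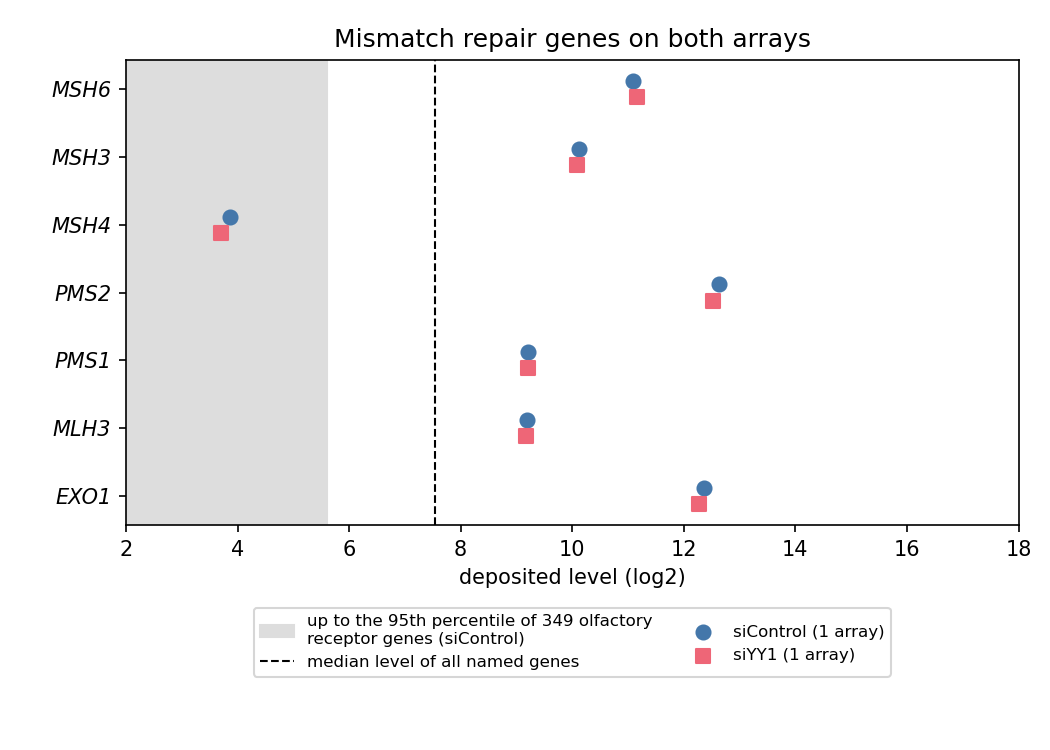
Deposited log2 level (horizontal axis) of the 7 measured mismatch repair genes in siControl (circles, 1 array) and siYY1 (squares, 1 array). The dashed line is the median level of all named genes (7.54) and the grey band ends at 5.61, the 95th percentile of olfactory receptor genes in siControl; MSH4 lies in the band at 3.86 and 3.71, and the other 6 lie at 9.18 or above on both arrays.

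The spread of the members was set beside that of all genes at or above the filter value. Of these 8844 genes, 6.82% lay past 1.5-fold in either direction and 25.7% past a lower threshold of 0.32 on the log2 scale, while 0 of the 6 members above the filter did so at either threshold. The largest difference among the 6 was that of PMS2, and 32.2% of the 8844 genes had a difference of that size or smaller. The median difference was -0.02 over the 6 members and 0.00 over the 8844 genes. The median size of the difference, sign ignored, was 0.05 for the members and 0.18 for the 8844 genes. With 1 array per group these values describe the arrays, and small differences do not show that expression was the same.

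**Figure D2:**
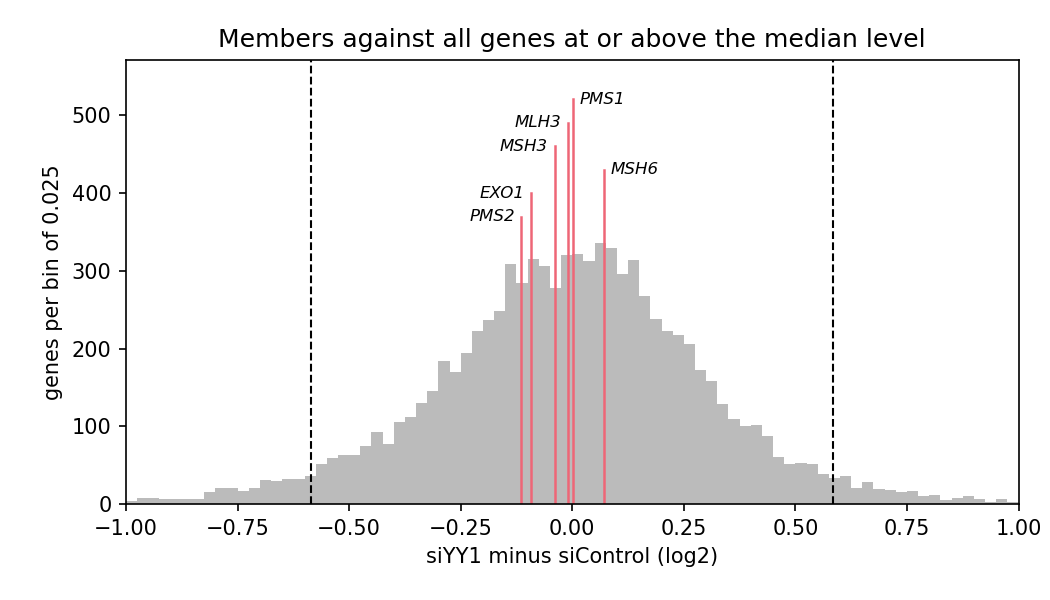
Number of genes (vertical axis, bins of 0.025) by siYY1 minus siControl on the log2 scale (horizontal axis), for the 8844 genes at or above the filter value; red lines mark the 6 members above it, their heights only spacing the labels, and dashed lines mark 1.5-fold. All 6 lie between -0.11 (PMS2) and 0.07 (MSH6), near the centre.

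The other genes of the pathway were described from lists chosen by function. Counts of lower and higher genes in these lists go by sign alone, however small the difference. Over all 8844 genes above the filter value the median difference was 0.00, so these divided about evenly by sign. The list of the clamp, its loader, the single-strand binding protein, the polymerase and the ligase, which supply the steps around excision and resynthesis, had 15 genes, all with a probe set and 14 above the filter value. Of these 14, 9 were lower and 5 higher, with a median of -0.15. In either direction 0 were past 1.5-fold, against 6.82% of all genes above the filter value. Near 0 were RPA1 (0.00), POLD3 (0.01), RFC2 (-0.01) and POLD2 (0.02), all named after their values were seen. The split counts them by sign only. RPA3, the small subunit of the single-strand binding protein RPA, had the largest negative difference, -0.44, from 10.16 in siControl to 9.71 in siYY1. POLD4, an accessory subunit of DNA polymerase delta, went from 8.64 to 8.28, a difference of -0.37. At the other end, LIG1, the ligase that seals the repaired strand, differed by 0.08 and HMGB1, a DNA-bending protein that can assist the reaction, by 0.04. All 5 subunits of the clamp loader RFC, a group singled out after its values were seen, were below 0, between -0.21 and -0.01. The 1 gene under the filter value was the catalytic polymerase subunit POLD1, also named after its values were seen, at 5.90 and 5.82.

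The list of 7 proteins that work alongside mismatch repair was entirely above the filter value, with 2 genes lower and 5 higher. Its median was 0.04 and 0 genes were past 1.5-fold, against 6.82% of all genes above the filter value. FAN1, a nuclease that binds MutL complexes, had the lowest difference at -0.09 (9.60 to 9.51), and MBD4, a glycosylase that acts on mismatches at CpG sites, followed at -0.04 (11.10 to 11.05). SETD2, which places the histone mark that draws MSH6 to chromatin, was at the upper end at 0.15 (9.06 to 9.21), next to the helicase gene BRIP1 at 0.11 (9.79 to 9.90). Of the 7, 6 had a difference no larger in size than that of PMS2. For the 14 genes of the clamp and resynthesis list this count was 6. Over all 8844 genes above the filter value the share was 32.2%.

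Genes of the meiotic crossover machinery, in which MSH4, MSH5 and MLH3 act, were under the filter value, though not all as dim as MSH4. Of 19 listed, 17 had a probe set and 0 of these reached the filter value. Their levels were 3.05 to 7.21 in siControl and 3.13 to 7.35 in siYY1. The upper ends of these ranges lay above the 95th percentiles of the olfactory receptor genes, 5.61 in siControl and 5.56 in siYY1. Past 1.5-fold were 2 genes higher, SYCP1 (3.41 to 4.60) and MEI4 (3.43 to 4.03), and 1 lower, SYCP2 (4.86 to 4.27), all named after their values were seen. Of all named genes under the filter value, 8.94% lay past 1.5-fold. The differences of MEI4 (0.60) and SYCP2 (-0.59) were near the 95th and 5th percentiles of the olfactory receptor genes, 0.62 and -0.58, and that of SYCP1 (1.19) was beyond them. The 7 germ cell markers, some of them also in the meiotic list, were dim too, at 3.34 to 4.95 in siControl and 3.59 to 5.37 in siYY1.

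Other excision pathways are given for comparison. Of the 16 base excision repair genes above the filter value, 11 were lower and 5 higher, with a median of -0.14. Past 1.5-fold were 0 of them, against 6.82% of all genes above the filter value. The uracil glycosylase gene UNG (-0.46) and the alkyladenine glycosylase gene MPG (-0.44) were the lowest, and NEIL2, an oxidised-base glycosylase (0.36), and POLB, the gap-filling polymerase (0.34), the highest. Of the 16 nucleotide excision repair genes above it, 10 were lower and 6 higher, with a median of -0.13. In that list 2 genes were at least 1.5-fold lower and 0 higher, where 3.78% and 3.04% of all genes above the filter value were. ERCC2, a helicase of the transcription and repair factor TFIIH, went from 11.72 to 10.89 (1.77-fold lower), and DDB2, a damage sensor, from 11.71 to 11.05 (1.57-fold lower). RAD23B (0.26) and ERCC3 (0.23) were the highest there. The differences between these lists and the mismatch repair members were not tested.

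EXO1 and MSH6 are reported targets of E2F factors, which drive S-phase genes, so a list of such genes was set beside them. Of 15 S-phase genes with a probe set, all above the filter value, 12 were lower and 3 higher. Their median was -0.13, against 0.00 over all genes above the filter value. The licensing factor gene CDT1 was the 1 gene past 1.5-fold, lower by 1.51-fold (10.03 to 9.43), where 3.78% of all genes above the filter value were at least that much lower. It came within 1.5-fold under 2 other scalings, at -0.57 with quantile normalization and -0.58 with lowess centring. CCNE1, which encodes cyclin E1, differed by -0.46, while CCNE2, for cyclin E2, and E2F1 differed by 0.32 and 0.36. The difference of EXO1 was on the side of the list's median and that of MSH6 on the other. The distribution of the cells over the cell cycle was not measured.

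**Figure D3:**
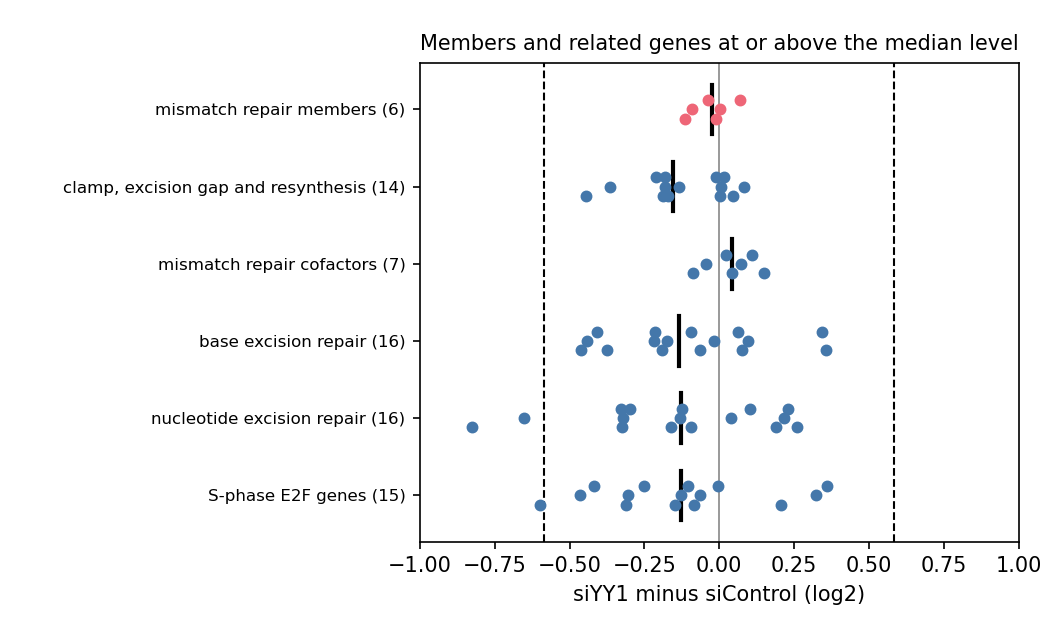
siYY1 minus siControl on the log2 scale (horizontal axis) for each gene at or above the filter value in the mismatch repair members and 5 related lists (rows, with the number of genes); points are genes, black bars are list medians and dashed lines mark 1.5-fold. The 6 members lie from -0.11 to 0.07 around a median of -0.02, while the nucleotide excision repair list reaches -0.83 (ERCC2).

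Some members share a promoter region with a gene on the other strand. Of the 8, 2 had a start site within 1000 bases of one on the opposite strand in the promoter table. The PMS1 start lies 111 bases from the nearest start of ORMDL1, a regulator of sphingolipid synthesis, and the CCAAT letters shown for PMS1 lie within the promoter windows of both genes. ORMDL1 was at 11.96 in siControl against 11.80 in siYY1, which gives -0.16, beside 0.00 for PMS1. The nearest PMS2 start lies 166 bases from a start of AIMP2, a scaffold protein of the tRNA synthetase complex, whose level was not analysed here.

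As a check of the cell type, 8 of 11 measured colon epithelium markers were above the filter value on these arrays. Of these 8, 1 lay past 1.5-fold, where 6.82% of all genes above the filter value did so in either direction. It was CEACAM5, which encodes carcinoembryonic antigen, at 13.80 in siControl and 12.42 in siYY1 (2.60-fold lower). The markers under the filter value, named after their values were seen, were CDX1 (4.12 and 3.73), LGALS4 (4.11 and 4.66) and VIL1 (6.04 and 5.68), in siControl and siYY1. Markers of other cell types were mostly under it. The exceptions were 1 of 7 fibroblast markers, COL1A2 (8.60 and 9.05), and 1 of 7 leukocyte markers, CD68 (8.72 and 7.64), and 0 of 5 endothelial markers reached it. CD68 was 2.12-fold lower in siYY1. Among the dim markers past 1.5-fold, also named after their values were seen, LYZ (5.37 and 6.35), PECAM1 (3.68 and 4.45) and SYCP1 were higher, and CDH5 (4.85 and 4.23) and the germ cell marker DAZL (4.44 and 3.66) lower. Under the filter value, 8.94% of all named genes lay past 1.5-fold.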

How the data were processed

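The authors deposited 1 log2 value per probe set and array; the log2 scale was read from the values. For software, background correction and normalization, the sources used here give nothing. Distributions of the arrays nearly coincided (largest gap between sorted values 0.153). Per the labels, 1 array measured siControl and 1 siYY1. Of 21448 probe sets, 17709 carried 1 gene symbol through GEO's platform annotation, giving 17687 genes, and the other 3739 are unnamed here. Values of several probe sets of a gene were averaged. Fixed rules of size (1.5-fold) replaced tests. The filter on dim genes was the median over both arrays (7.54). Named genes were all members, promoter neighbours and, of each pathway list, up to 2 genes above the filter at each end and any of those past 1.5-fold, with markers as counts and up to 2 at each end. Genes outside this rule are marked as named after their values were seen. Members and lists were chosen with earlier results of these data known. Alternatives were other folds and filters, quantile normalization, median and lowess centring (fraction 0.3) and the brightest probe set. The calling of genes past 1.5-fold was tested on simulated data, with known differences larger than those of the members. The motif, promoter and list steps were not tested in this way. Python 3.11.15, numpy 2.4.6, pandas 2.3.3, statsmodels 0.14.6 and matplotlib 3.10.9 were used.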

Additional observations from a re-analysis of the deposited data

How the results depend on the processing

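Across quantile normalization, median centring, lowess centring and the brightest probe set, the difference of each of the 7 members moved by at most 0.03 and 0 members came past 1.5-fold. The difference of PMS1 ranged from -0.01 to 0.02 and that of MLH3 from -0.03 to 0.01, so both changed sign. The other 5 members kept their sign under these 4 alternatives. The count of members was 0 in each direction also at thresholds of 0.32 on the log2 scale and of 2-fold and under both filters on dim genes. The S-phase list had 0 genes at least 1.5-fold lower, in place of 1, under quantile normalization and lowess centring. Counts of lower and higher genes in the lists were not repeated under the alternatives, and genes near 0 can change sign. Over all named genes, 704 were at least 1.5-fold higher and 690 lower; the counts were 2636 and 2451 at 0.32 on the log2 scale, 78 and 81 at 2-fold, and 269 and 334 among the genes above the filter value. SYCP1, MEI4 and SYCP2 stayed past 1.5-fold under the 4 alternatives, a check chosen after seeing the data. No paired analysis was possible because each group had 1 array. No replicate could be left out for the same reason, so the arrays give no measure of error.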
